A study of Mus musculus with 4 samples.

Results

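A set of 10 receptor, adaptor and granule genes best known from natural killer (NK) cells were followed across 4 mouse CD4+ T cell arrays. They are 10 of the 27597 genes on the array and were selected on their levels in these same arrays: Klrd1, Klrk1, Klrc1, Klrb1c, Klrg1 and Klre1 encode receptors, Fcer1g and Tyrobp encode signalling adaptors, and Nkg7 and Ctsw encode granule proteins. Every probe that the files or the current gene name assign to them was taken, 15 probes in all. Because the measured values led to the choice, the levels and differences are given as descriptions, with no test.

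All 4 samples were CD4+ T cells from spleen and lymph nodes of BALB/c mice, and age and number of animals are not given in the sources used here. The first was naive T cells, CD4+CD25- with high CD62L and never transfected, and the second was natural regulatory T cells (Treg, CD4+CD25+), also never transfected. The other pair were natural Treg enriched for CD25 with beads, given a lentivirus carrying a short hairpin RNA and GFP, held for 60 h in medium with human IL-2, and purified by their GFP. The first hairpin was aimed at Eos (si-Eos), a zinc-finger partner of the Treg factor Foxp3 that is encoded by Ikzf4, and the control hairpin (si-RL) at luciferase of Renilla. Virus, IL-2 culture and the GFP sort are therefore shared by both hairpin libraries, and the labels give none of them for the other pair, called fresh below. There was 1 array per group, so no difference has a replicate check.

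NK receptors of the Klr family are C-type lectins that report on target cells. Some, such as NKG2A, carry inhibitory motifs in their own tails, whereas others, such as NKG2D, have no signalling motif and rely on adaptors: FcRγ and DAP12 carry ITAM motifs that recruit Syk-family kinases, and DAP10 carries a YINM motif. T cells take up parts of this set when they become effector cells, and KLRG1 is also known from a subset of Treg.

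The targeted gene was examined first. Ikzf4 had a scaled level of 0.636 in naive T, 0.926 in Treg, 0.779 in the si-Eos-labelled library and 0.409 in the si-RL-labelled library. A scaled level is the background-subtracted spot signal divided by the 75th percentile of its array. The si-Eos-labelled library thus read higher than the si-RL-labelled library, by 0.93 ± 0.21 on the log2 scale, which goes against the label, and its other probes differed by 1.96 and 1.19. Both transduced libraries are therefore named by their labels. Each direction between the hairpin libraries below holds for the libraries as labelled. Foxp3 read 0.213, 4.54, 8.26 and 0.420 in the same order. T cell markers were well above background on every array (7 of 7 found), and so were all 8 Treg markers. Well above background is the scanner software's flag, and a probe without it is called dim. In the si-RL-labelled library, 6 of the 8 Treg markers were at least 2-fold lower than in fresh Treg and 0 higher (median log2 difference -2.36). In the si-Eos-labelled library, 1 was at least 2-fold lower and 2 higher (median 0.18). Of 6 naive markers, the si-RL-labelled library had 3 at least 2-fold higher than Treg and 0 lower. The si-Eos-labelled library had 0 higher and 3 lower. The part of these marker differences in the results below was not tested. Between 64.0% and 68.3% of 41174 probes were well above background per array, and the 75th percentile of the signal lay between 262 and 392.

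To show what lies at the start of genes that were high in 1 hairpin library, the RefSeq promoter windows of Nkg7, Klrk1 and Klrc1 are given, with that of Klrb1c, which was within 2-fold in all 4 comparisons on its brighter probe with the deposited signal. Each window runs 5′ to 3′ on the gene's strand from 250 bases before to 50 bases after the start (build GRCm38.p6). Of the 10 genes, 6 had a window. Capitals mark matches on either strand to the T-box core GGTGTG or the Runx motif TGTGGT (read from the other strand as ACCACA). The windows lie at chr7:43436888-43437187 (+ strand, Nkg7), chr6:129623815-129624114 (- strand, Klrk1), chr6:129678924-129679223 (- strand, Klrc1) and chr6:128788592-128788891 (- strand, Klrb1c).
Nkg7: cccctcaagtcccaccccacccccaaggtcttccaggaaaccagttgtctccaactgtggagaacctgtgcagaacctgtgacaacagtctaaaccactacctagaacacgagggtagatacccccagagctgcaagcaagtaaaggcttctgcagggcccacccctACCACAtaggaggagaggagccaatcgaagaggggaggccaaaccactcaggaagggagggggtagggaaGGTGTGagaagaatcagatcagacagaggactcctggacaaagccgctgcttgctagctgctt
Klrk1: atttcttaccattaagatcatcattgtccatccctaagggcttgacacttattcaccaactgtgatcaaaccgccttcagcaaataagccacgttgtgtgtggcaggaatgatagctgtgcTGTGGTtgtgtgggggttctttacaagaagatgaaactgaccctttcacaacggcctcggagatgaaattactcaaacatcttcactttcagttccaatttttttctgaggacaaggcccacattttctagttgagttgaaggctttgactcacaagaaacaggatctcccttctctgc
Klrc1: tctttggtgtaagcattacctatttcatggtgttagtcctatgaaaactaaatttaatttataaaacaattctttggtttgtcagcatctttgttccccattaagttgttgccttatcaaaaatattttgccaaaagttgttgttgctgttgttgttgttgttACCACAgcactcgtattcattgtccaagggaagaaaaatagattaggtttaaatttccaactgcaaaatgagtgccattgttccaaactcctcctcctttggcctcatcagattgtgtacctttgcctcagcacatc
Klrb1c: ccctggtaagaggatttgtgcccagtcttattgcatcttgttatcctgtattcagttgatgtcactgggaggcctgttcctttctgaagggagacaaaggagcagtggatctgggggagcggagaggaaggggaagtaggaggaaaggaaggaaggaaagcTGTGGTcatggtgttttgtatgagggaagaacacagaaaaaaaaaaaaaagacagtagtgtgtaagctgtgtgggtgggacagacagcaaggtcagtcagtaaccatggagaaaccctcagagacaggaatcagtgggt

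The Nkg7 window held 1 T-box core, 13 bases before the start, and 1 Runx motif, 83 bases before it. Klrk1, Klrc1 and Klrb1c each held 1 Runx motif, at 129, 87 and 89 bases before the start, and no T-box core. Among all 32851 windows of this length, 19.0% held the T-box core and 16.8% the Runx motif. An Ikaros-family core, TGGGAA, was in 25.6% of all windows and a forkhead motif, GTAAACA, in 3.65%. Neither was in the 4 windows shown. Klre1 had 2 Ikaros-family cores in each of its windows, which overlap and share 1 of these cores. Fcer1g and 1 of the Klre1 windows held 1 Runx motif each. Klrb1c, which did not go with the other 3, shared the Runx motif. These matches describe letters, not binding.

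The si-Eos-labelled library had the highest reading of the granule gene Nkg7, of Ctsw and of the receptors Klrk1 and Klrc1, whereas fresh Treg had the highest Klrg1, and naive T cells the highest Klrd1. Of the 10 genes, 5 were well above background in the si-RL-labelled library, compared with 8 in naive T cells and 9 each in Treg and the si-Eos-labelled library. On all 4 arrays the same 5 were above it: Klrd1, Klrb1c, Fcer1g, Nkg7 and Ctsw. In these bulk samples, fewer cells that carry a transcript and less transcript per cell cannot be told apart.

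**Figure D1:**
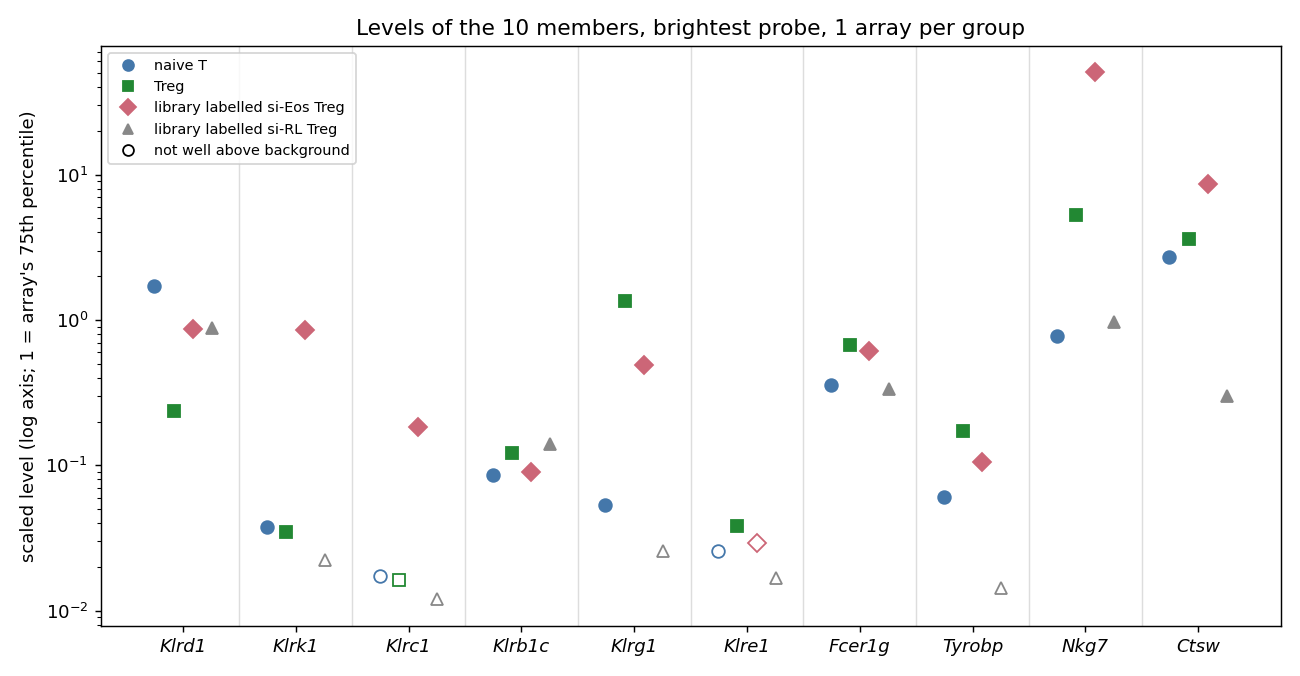
Scaled level of each of the 10 genes (brightest probe; log axis, where 1 is the array's 75th percentile) on the 4 arrays, 1 symbol per array; open symbols were not well above background. Nkg7 in the si-Eos-labelled library stands at 50.5, and Klrk1 and Klrc1 are high on that array only. Heights of different genes are not comparable, because probes differ.

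Among the receptors, Klrk1 (NKG2D, an activating receptor for stress-induced ligands) read highest in the si-Eos-labelled library. Its brighter probe (chromosome 6, 129578157 to 129578446, mm8, the build of all probe positions here; exons and UTRs were not analysed) read 0.0377 in naive T cells, 0.0350 in fresh Treg, 0.849 in the si-Eos-labelled library and 0.0222 in the si-RL-labelled library, where it was not well above background. Its signal was thus 272 on 1 array and between 5.82 and 13.7 on the other 3. The si-Eos-labelled library exceeded Treg by 4.60 ± 0.33 on the log2 scale (24.3-fold) and the si-RL-labelled library by at least 24.5-fold. The ± is the scanner software's error of the pair of spots, technical only, and "at least" takes the dim array at its lowest level well above background, or at the dim probe's own level if higher. The second probe was well above background on the si-Eos-labelled library alone, with a signal of 91.3. With normexp from 1 background value per array, the Klrk1 difference from Treg was 2.40. With a normexp correction from each spot's local background it was 0.47, under 2-fold, and Treg lay 1.06 above naive T cells, where the deposited signal gave -0.11 ± 0.43.

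Klrc1 (NKG2A, the inhibitory partner of CD94; 129641066 to 129642871, a span wider than the probe itself) was well above background on the si-Eos-labelled library alone, with a scaled level of 0.183 against 0.0173, 0.0162 and 0.0120 in naive T cells, Treg and the si-RL-labelled library. This was at least 6.41-fold above Treg and at least 5.28-fold above the si-RL-labelled library. Klrc2 and Klrc3, its near relatives next to it on the chromosome, also read highest there (0.187 and 0.302). Probes of such paralogs can share signal, so which of the 3 transcripts was present is uncertain.

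Klrd1 (CD94, the common partner of the NKG2 chains; 129564066 to 129564125) did not follow Klrk1 and Klrc1. It read 1.72 in naive T cells, 0.238 in fresh Treg, 0.866 in the si-Eos-labelled library and 0.879 in the si-RL-labelled library. Naive T cells were thus highest and Treg lowest, with a difference of -2.86 ± 0.21 for Treg against naive T cells, or -1.34 with the local-background normexp correction. Both hairpin libraries lay above Treg, by 1.86 ± 0.21 for that labelled si-Eos and 1.89 ± 0.21 for that labelled si-RL, and the 2 comparisons share the Treg array. Between the hairpin libraries the difference was -0.02 ± 0.20, within the scanner error. The same correction took the differences of the hairpin libraries from Treg to 0.48 and 0.51, under 2-fold. The sum of the CD8 T cell markers was also highest in naive T cells, at 3.91, of which the brighter Cd8b1 probe gave 3.84. Cd8a was not highest there, at 0.0762 in naive T cells and Treg and 0.0923 in the si-Eos-labelled library. Another Cd8b1 probe put Treg above naive T cells by 0.60. The part of these markers in the Klrd1 level was not tested.

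Klrg1 (an inhibitory receptor for cadherins; chromosome 6, 122236571 to 122236630) had its highest level in fresh Treg. The scaled level was 0.0537 in naive T cells, 1.35 in fresh Treg, 0.488 in the si-Eos-labelled library and 0.0256, not well above background, in the si-RL-labelled library. Treg exceeded naive T cells by 4.66 ± 0.27 (25.2-fold), and by 2.65 and 1.98 with the array-wide and the local-background normexp corrections. The si-Eos-labelled library was below Treg by a log2 difference of -1.47 ± 0.20, and the si-RL-labelled library was at least 39.1-fold below Treg. Klrg1 therefore differed from Nkg7 and Ctsw in the si-Eos-labelled library, where it stood below Treg and they stood above it.

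Klrb1c (an activating receptor that signals through FcRγ, at 128744204 to 128744263) varied less than Klrd1, the other receptor gene well above background on all arrays. Its scaled level was 0.0854 in naive T cells, 0.121 in fresh Treg, 0.0895 in the si-Eos-labelled library and 0.141 in the si-RL-labelled library, and no pair of arrays in the 4 comparisons was 2-fold apart. With the local-background normexp correction, both hairpin libraries were more than 2-fold below Treg, at -1.42 for si-Eos and -1.05 for si-RL as labelled. Signals ran from 25.9 to 47.4, and its second probe was not well above background on any array. Klre1 (a receptor that pairs with Klri chains; 129550654 to 129550713) was well above background in Treg only, at 0.0381, with 0.0257, 0.0295 and 0.0167 in naive T cells and the si-Eos- and si-RL-labelled libraries. Its bounds were at least 1.30-fold above naive T cells, 1.29-fold above the si-Eos-labelled library and 1.10-fold above the si-RL-labelled library, and its second probe was dim on all 4 arrays.

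Treg exceeded naive T cells in both adaptor genes, Tyrobp past 2-fold and Fcer1g, on its brighter probe, short of it. Fcer1g encodes FcRγ, the ITAM chain of Fc receptors and of the Klrb1c receptor (chromosome 1, 173066338 to 173066397). It read 0.359 in naive T cells, 0.678 in fresh Treg, 0.612 in the si-Eos-labelled library and 0.337 in the si-RL-labelled library. Treg and the si-Eos-labelled library formed a higher pair, -0.15 ± 0.20 apart, and naive T cells and the si-RL-labelled library a lower one. Treg lay above naive T cells by 0.92 ± 0.21, and the si-RL-labelled library lay below Treg by a difference of -1.01 ± 0.21, just past 2-fold and under it with median scaling (-0.93) and the array-wide normexp correction (-0.70). The other Fcer1g probe, at 173066390 to 173066462, kept the same higher and lower pairs: 0.00638 and 0.00751, both dim, in naive T cells and the si-RL-labelled library, against 0.106 in Treg and 0.158 in the si-Eos-labelled library. Its differences from the dim arrays are therefore not given as values, and on it the si-Eos-labelled library lay above Treg, by 0.57 ± 0.23. With spike-in scaling, the brighter probe put Treg above naive T cells by 1.15, past 2-fold.

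Tyrobp (DAP12, the ITAM adaptor of activating Ly49 and other receptors; chromosome 7, 30124392 to 30126119) read 0.0605 in naive T cells, 0.172 in fresh Treg, 0.106 in the si-Eos-labelled library and 0.0143, not well above background, in the si-RL-labelled library. Treg was 1.51 ± 0.27 above naive T cells, and 0.43 above them with normexp from 1 background value per array. The si-RL-labelled library was at least 4.96-fold below Treg and at least 3.06-fold below the si-Eos-labelled library. The si-Eos-labelled library differed from Treg by -0.70 ± 0.23, and by -1.10 with spike-in scaling and -1.38 with the local-background normexp correction, both past 2-fold. Signals were 67.3 or less, so these are low readings.

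Nkg7 (a membrane protein of cytotoxic granules) peaked in the si-Eos-labelled library and was well above background on all 4 arrays with both probes. Its brighter probe (chromosome 7, 43306032 to 43306091) had a signal of 233 in naive T cells, 2075 in fresh Treg, 16147 in the si-Eos-labelled library and 256 in the si-RL-labelled library, or scaled levels of 0.770, 5.29, 50.5 and 0.975. Naive T cells and the si-RL-labelled library were thus low and close, Treg was in the middle and the si-Eos-labelled library far above. Treg exceeded naive T cells by 2.78 ± 0.20 (6.87-fold), and the si-Eos-labelled library exceeded Treg by 3.25 ± 0.20 (9.53-fold). The si-RL-labelled library differed from Treg by -2.44 ± 0.20, which put the hairpin libraries 5.69 ± 0.20 (51.7-fold) apart. The second probe (43305698 to 43305757) read 0.315, 2.79, 27.3 and 0.319 in the same order, with differences of 3.15, 3.29, -3.13 and 6.42. With the local-background normexp correction, the brighter probe gave 1.96 for Treg against naive T cells and -1.76 for the si-RL-labelled library against Treg.

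Ctsw (cathepsin W, a protease of cytotoxic lymphocytes; chromosome 19, 5465371 to 5465430) read 2.69 in naive T cells, 3.63 in fresh Treg, 8.56 in the si-Eos-labelled library and 0.301 in the si-RL-labelled library. Unlike Nkg7, it was under 2-fold apart between the fresh samples, with a difference of 0.43 ± 0.20. The si-RL-labelled library stood below both fresh arrays, at -3.59 ± 0.21 against Treg, and the si-Eos-labelled library above both, at 1.24 ± 0.20 against Treg, or 0.84 when arrays were scaled to their spike-in controls. The hairpin libraries were 4.83 ± 0.21 (28.5-fold) apart. With the array-wide and local-background normexp corrections, the difference of the si-RL-labelled library from Treg was -2.91 and -2.46, and that between the hairpin libraries 4.11 and 4.12. No other cathepsin gene was as far apart. Of 11 measured between them, 4 were at least 2-fold higher in the si-Eos-labelled library, led by Ctsg at 4.38 ± 0.29. Ctsl was the 1 lower, at -1.05 ± 0.20. Over all genes, 10.7% were higher and 10.1% lower.

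**Figure D2:**
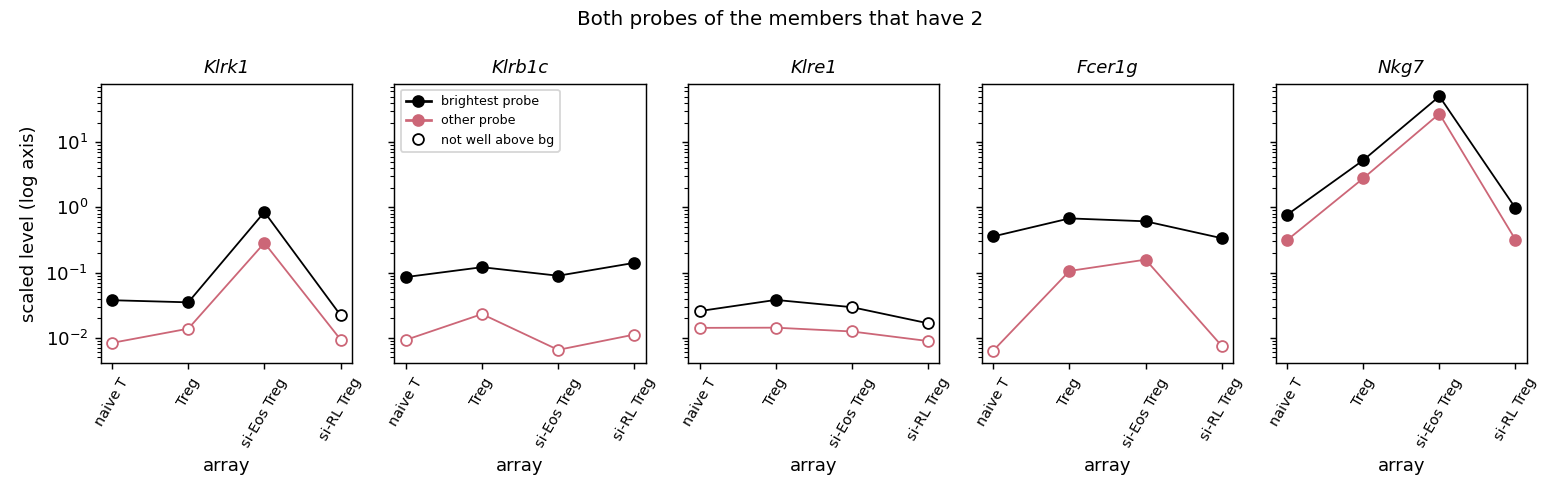
Scaled level (log axis) on the 4 arrays for both probes of the 5 genes that have 2; open symbols were not well above background. The probes of Nkg7 and Klrk1 keep the same peak in the si-Eos-labelled library, whereas the second Fcer1g probe was dim in naive T cells and the si-RL-labelled library.

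Set out by comparison, the count of genes at least 2-fold apart was as follows, among those well above background on both arrays. Treg against naive T cells had 8 of the 10 genes measured. Klrg1, Nkg7 and Tyrobp were at least 2-fold higher in Treg, beside 5.51% of 17595 genes, and Klrd1 was lower, beside 2.04%. The median over the 8 was 0.71, and over all genes -0.02. Per the labels, high CD62L was part of the gate for naive T cells but is not listed for Treg. Treg differences therefore cannot be told apart from differences of activation state.

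Between the hairpin libraries, 5 of the 10 were measured, and Nkg7 and Ctsw were at least 2-fold higher in the si-Eos-labelled library, beside 10.7% of 17085 genes. None was 2-fold lower, beside 10.1%. The median over the 5 was 0.86, and over all genes 0.04. Klrk1, Klrc1, Klrg1 and Tyrobp were well above background on the si-Eos-labelled library and not on the other, with bounds of at least 24.5-fold, 5.28-fold, 14.1-fold and 3.06-fold. With bounds counted, 6 of the 10 genes read at least 2-fold higher in the si-Eos-labelled library. Klrd1, Klrb1c and Fcer1g did not, and Klre1 was dim on both arrays. The 10.7% leaves out genes dim on either array. No share with bounds was computed over all genes, so nothing is read from the count of 6. Eos itself was higher there, against the label.

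Against fresh Treg, the si-RL-labelled library had 5 of the 10 measured. Ctsw, Fcer1g and Nkg7 were at least 2-fold lower, beside 8.21% of 17084 genes, and Klrd1 was higher, beside 7.89%. The median over the 5 was -1.01, and over all genes -0.01. The si-Eos-labelled library had 8 measured against the same Treg array. Klrk1, Nkg7, Klrd1 and Ctsw were at least 2-fold higher, beside 8.84% of 17899 genes, and Klrg1 was lower, beside 10%, with a median of 0.54 against 0.06 over all genes. The members were chosen on these arrays, so nothing is read from the gap between their counts and these shares.

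**Figure D3:**
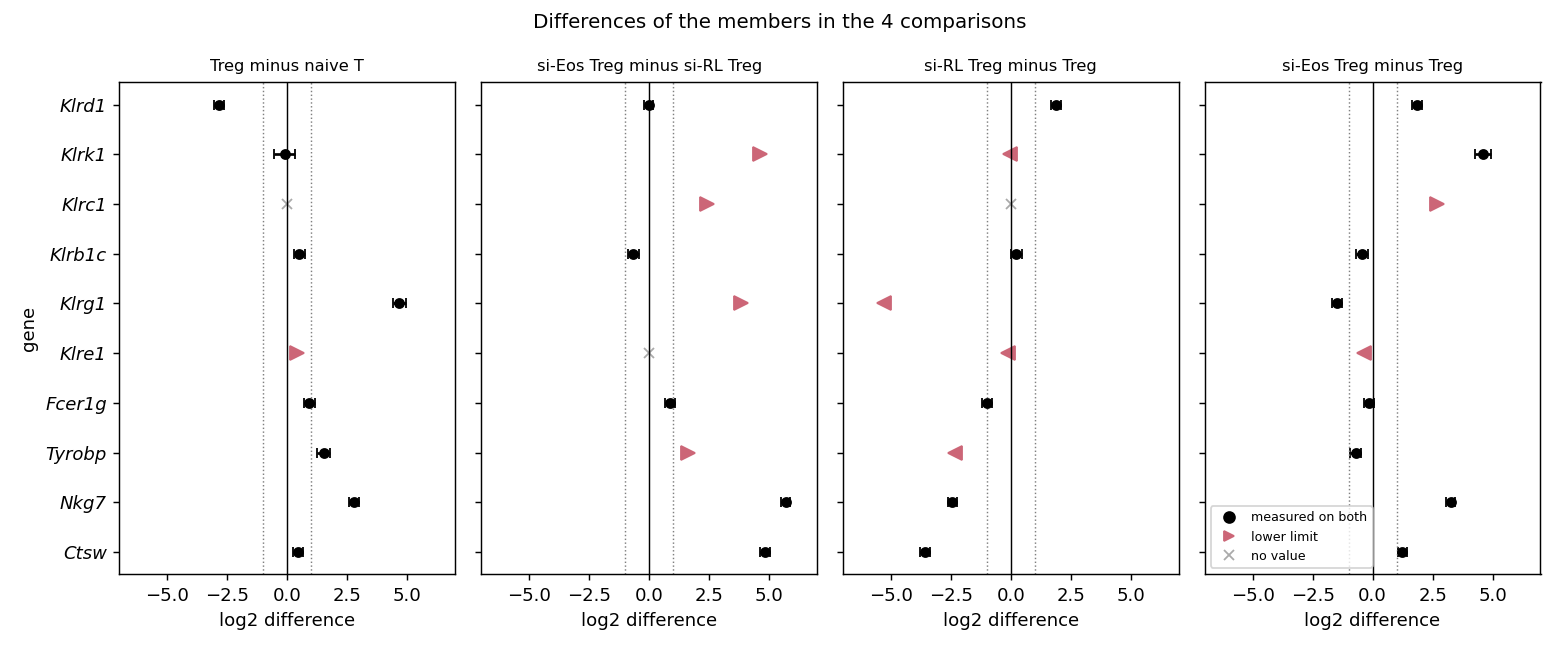
Log2 difference of each gene in the 4 comparisons; points were measured on both arrays, with the scanner error as bars, triangles are lower limits where 1 array was dim, crosses have no value, and dotted lines mark 2-fold. Nkg7 and Ctsw lie above 0 for the si-Eos-labelled library against Treg and below 0 for the si-RL-labelled library against Treg.

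Other genes of the same pathways were then examined. Of 17 other Klr genes found on the array, naive T cells had 3 well above background, fresh Treg 5, and the hairpin libraries 9 (si-Eos label) and 3 (si-RL label). Probes named for Klra3, Klra6 and Klra8, of the Ly49 family, were above background in the si-Eos-labelled library alone. They were at least 4.62-fold, 3.69-fold and 2.34-fold above the si-RL-labelled library. Ly49 genes are close copies, so probes may share signal, and which Ly49 transcripts were present is uncertain. Klra5 differed by 2.02 ± 0.27 between the hairpin libraries. Klrb1f went the other way, with a difference of -1.86 ± 0.22.

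The other adaptors of this system did not follow Nkg7. Hcst (DAP10, the YINM adaptor of NKG2D) was highest in naive T cells and lowest in the si-Eos-labelled library, with scaled levels of 18.1, 9.42, 3.28 and 8.65 for naive T cells, Treg and the si-Eos- and si-RL-labelled libraries. It was lower in the si-Eos-labelled library than in Treg by a difference of -1.52 ± 0.20, on the array where its partner Klrk1 was highest. Cd247 (CD3ζ) differed by 0.23 ± 0.20 between the hairpin libraries and Cd3d by 0.03 ± 0.20. Of the 7 other ITAM and YINM adaptors, 0 were at least 2-fold higher and 1, Hcst, lower in that comparison. The shares over all genes were 10.7% and 10.1%.

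Downstream of the adaptors, 16 of 19 signalling genes were measured between the hairpin libraries, with 3 at least 2-fold higher, beside 10.7% of all genes, and 2 lower, beside 10.1%. The median over the 16 was 0.67. Ptpn6 (SHP-1, the phosphatase recruited by inhibitory motifs) was higher by 1.30 ± 0.20 in the si-Eos-labelled library on its brightest probe, but by 0.27 and 0.22 on its other 2 probes. The kinase gene Zap70 (1.03 ± 0.20) and Lat (1.02 ± 0.20) were the others. Sh2d1a (SAP, an adaptor of SLAM receptors) was lower by a difference of -3.01 ± 0.20. Syk, the kinase that binds ITAMs in NK and myeloid cells, was low on every array (0.0317 to 0.0780) and dim in the si-RL-labelled library.

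Among ligands of these receptors, H2-T23 (Qa-1, which NKG2A with CD94 reads) was within 2-fold in all 4 comparisons, with scaled levels of 229, 211, 199 and 142. Ulbp1 (MULT1, a ligand of NKG2D) was higher by 1.25 ± 0.21 in the si-Eos-labelled library than in the si-RL-labelled library, and by 3.08 ± 0.23 than in Treg. The listed Clec2 genes, whose products bind NKR-P1 receptors, read lower in the si-Eos-labelled library than in the si-RL-labelled library: Clec2d by a difference of -1.95 ± 0.21, Clec2i by -1.32 ± 0.20 and Clec2g by -1.14 ± 0.20. Cdh1 (E-cadherin, a ligand of KLRG1) was above background in the si-Eos-labelled library alone, at 0.0313, near the lowest level flagged there (0.0285). Its dim reading in naive T cells was 0.0282, so no difference is read from it.

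Granule genes beyond Nkg7 and Ctsw gave 8 of 16 measured at least 2-fold higher in the si-Eos-labelled library than in the si-RL-labelled library, beside 10.7% of all genes, and 1 lower, beside 10.1%. Among them were the granzyme genes Gzmb (3.89 ± 0.20) and Gzmc (3.58 ± 0.21), Stx11 (syntaxin 11, of granule fusion, 3.54 ± 0.21) and Prf1 (perforin, 3.48 ± 0.30). Prf1 was highest in naive T cells, however, at 1.47 against 0.293 in Treg and 0.622 in the si-Eos-labelled library. Gzmb differed from Nkg7 in the other library too: the si-RL-labelled library was above Treg for Gzmb, by 3.99 ± 0.21, and below it for Nkg7. Stxbp2 was the granule gene lower in the si-Eos-labelled library, at -1.10 ± 0.20. The granule list was chosen with earlier results of these data known, so nothing is read from its counts beside the shares.

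Transcription factor genes of NK and effector cells were at least 2-fold higher in the si-Eos-labelled library than in Treg in 9 of 14 measured, beside 8.84% of all genes, and at least 2-fold lower in 1, Id3 (-3.35 ± 0.21), beside 10%. This list was chosen with earlier results of these data known, so nothing is read from its counts beside these shares. In the si-Eos-labelled library, Zeb2 differed from Treg by 4.25 ± 0.26, Tbx21 (T-bet) by 3.19 ± 0.20, Nfil3 by 2.63 ± 0.20 and Zbtb32 by 2.05 ± 0.20. Tbx21 read 0.265 in naive T cells, 1.49 in fresh Treg, 13.6 in the si-Eos-labelled library and 1.49 in the si-RL-labelled library. It shared the peak of Nkg7, but in the si-RL-labelled library it was level with Treg, where Nkg7 was lower. Of the 10 receptor genes for IL-2, IL-12, IL-15 and IL-18, 4 were at least 2-fold higher in the si-Eos-labelled library than in Treg. Among these was Il12rb1 (2.29 ± 0.20), and 1 gene was lower, Il18r1 (-1.80 ± 0.20). The shares over all genes were again 8.84% and 10%.

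Of the 10 genes, 5 (Klrb1c, Klre1, Klrd1, Klrk1 and Klrc1) lie in the natural killer gene complex on chromosome 6, between 128744204 and 129642871 (mm8), with 25 other genes of the array. Between the hairpin libraries, 10 of the 25 were measured. Of these, 0 were at least 2-fold higher and 6 lower in the si-Eos-labelled library, beside 10.7% and 10.1% of all genes. That count leaves out genes dim on either array, among them Klrc3 and Klrc2, which were at least 8.73-fold and 5.40-fold higher in that library. Against Treg, 12 were measured, with 3 higher and 5 lower by at least 2-fold in the si-Eos-labelled library. Cd69, an activation marker of this interval, was among the lower ones, at 4.27 against 22.8 in the si-RL-labelled library. At the end of the interval, the adjacent genes Klrk1, Klrc3, Klrc2 and Klrc1 all read highest in the si-Eos-labelled library. Gabarapl1, of the autophagy machinery, is separated from these genes by Klre1 and Klrd1. It read 0.905, 5.74, 30.4 and 16.4 in naive T cells, Treg and the si-Eos- and si-RL-labelled libraries. It was thus also above Treg in the si-RL-labelled library.

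**Figure D4:**
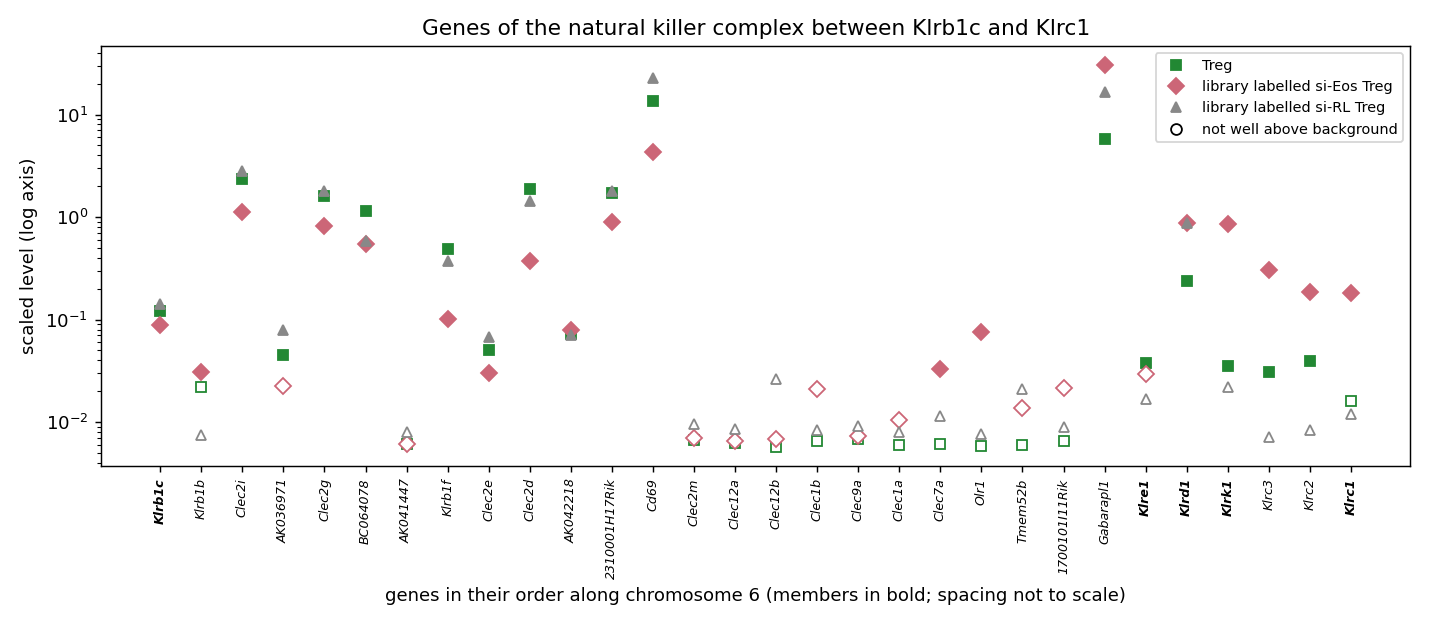
Scaled level (log axis) of the 30 array genes of the natural killer complex in their order along chromosome 6, for Treg and both hairpin libraries; open symbols were not well above background and the 5 genes of interest are in bold. The 4 genes from Klrk1 to Klrc1 are higher in the si-Eos-labelled library, and Cd69 and Clec2d are lower there.

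Markers of cells that could carry these transcripts moved with them in part. Of 10 NK cell markers found, 5 were well above background in the si-Eos-labelled library, against 3, 4 and 2 in naive T cells, Treg and the si-RL-labelled library, and their summed level was 2.88 against 0.556, 0.798 and 0.435. Gzma (1.63), Eomes (0.547) and Cd244a (0.531) made up most of that sum, and activated T cells can express all 3. The others above background there were probes named for the Ly49 genes Klra8 (0.0811) and Klra9 (0.0422). Which Ly49 transcripts these probes read is uncertain. Both were dim on every other array. Ncr1 (NKp46), the defining marker of NK cells, was not well above background in the si-Eos-labelled library and had a signal of 26.1 in Treg, where it was above background. Itga2 (CD49b) was dim on all 4 arrays. Their part in the results was not tested.

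Mast cell and basophil markers were above background in 8 of 8 in the si-Eos-labelled library, with a summed level of 2.20 against 0.812 to 0.968 on the other arrays, of which Cpa3 gave 1.07. Fcer1g, which those cells also express, differed between that library and Treg by -0.15 ± 0.20 on its brighter probe and 0.57 ± 0.23 on the other, and the part of such cells was not tested. Myeloid markers summed to between 1.65 and 2.10, and neutrophil markers to between 0.376 and 0.516. Of the 10 myeloid markers, 5 to 7 were well above background on each array. Mpeg1 was 2.84 ± 0.23 higher in the si-Eos-labelled library than in the si-RL-labelled library and 0.27 ± 0.20 higher than in Treg, and Csf3r and Spi1 were dim on all 4 arrays. Their part in the results was not tested either. The CD8 T cell markers Cd8a and Cd8b1 summed to 2.47 in the si-Eos-labelled library, below the 3.91 of naive T cells, and Cd8b1 gave most of each sum. Dendritic cell markers summed to between 6.41 and 8.68. B cell markers summed to 24.5 and 25.2 in the fresh samples and to 1.21 and 1.18 in the hairpin libraries, and Jchain made up most of the sum in the fresh samples. Platelet and erythrocyte markers summed to 0.970 in the si-Eos-labelled library, mostly from Pf4 (0.702), and to between 0.270 and 0.439 on the other arrays.

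**Figure D5:**
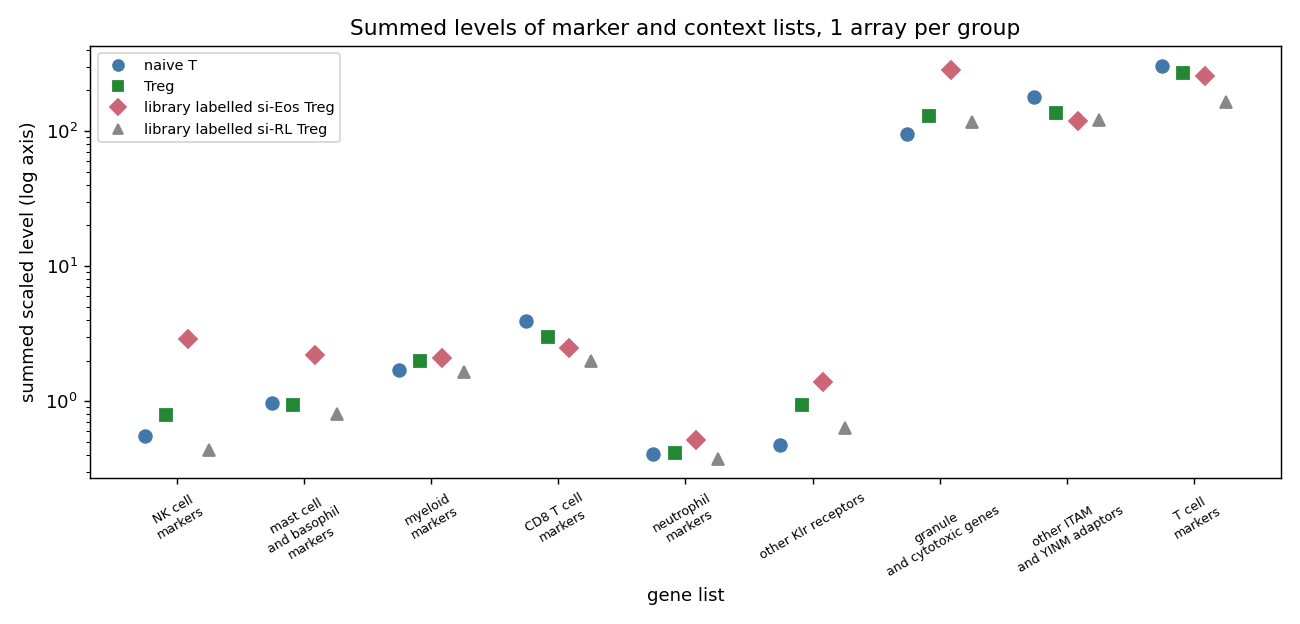
Summed scaled level (log axis) of marker and context gene lists on the 4 arrays, 1 symbol per array. The sums of NK cell and mast cell markers are highest in the si-Eos-labelled library, at 2.88 and 2.20. That of CD8 T cell markers, mostly Cd8b1, is highest in naive T cells, at 3.91.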

How the data were processed

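Amplified RNA of 4 samples, labelled with Cy3, was hybridised to Agilent arrays, per the labels' protocols. Spot intensity in the deposited files was on a linear scale (Agilent Feature Extraction 9.5.3.1 and build mm8, per the file headers), background-subtracted and not scaled between arrays. The deposited value table held the same intensity, within 0.5% for 100.0% of spots. Column medians ran from 31.5 to 50.5.

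Outlier spots (71 to 94 of 43379 per array) were left out. Signals were divided by each array's 75th percentile and taken to log2 (Python 3.11.15; normexp in limma 3.58.1). Probes were named through RefSeq (GRCm38.p6), and the brightest probe stood for a gene. The 4 arrays were on 1 slide. The members, lists and tests were chosen with earlier results of these data known. All 10 members are named, with up to 4 genes per list and comparison that differed most. Other genes named from a list or the complex were chosen after their values were seen. The counting step was tested on simulated data. Alternatives changed scaling, background correction, the filter, the probe and the source table.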

Additional observations from a re-analysis of the deposited data

Results flagged for a closer look

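Nkg7 and Ctsw stood out because the hairpin libraries lay on opposite sides of fresh Treg, each by at least 2-fold. Nkg7 was above Treg by 3.25 in the si-Eos-labelled library and below it in the si-RL-labelled library, with a log2 difference of -2.44. Ctsw was above Treg by 1.24 and below it at -3.59 in the same libraries. With 1 array each, whether the libraries differ in this was not tested, and both comparisons share the Treg array. Across the array, 107 of 16797 genes measured in both lay on the same sides as Nkg7 and Ctsw, and 54 lay the other way. Only 5 of the 10 genes were measured in both comparisons, because the other 5 were dim on at least 1 array.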

How the results depend on the processing

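The 10 alternatives gave 251 recomputed single-gene differences. Of these, 183 stayed within the scanner error, 68 moved further, 8 changed sign (all from values under 2-fold), 8 fell under 2-fold and 6 rose past it. The cause was not tested. The second-probe and no-filter medians cover other sets of genes than the main medians. With the second probe, genes with 1 probe kept it, and genes whose second probe was dim dropped out. The median of the measured genes for Treg against naive T cells (0.71, 8 genes) was 0.39 with normexp from 1 background value and 1.0 with local normexp. It was 1.51 with the second probe (5 genes) and 0.94 with spike-in scaling. For the si-Eos-labelled library against Treg (0.54, 8 genes) it was 0.06 with local normexp, 0.91 with the second probe (6 genes) and 0.14 with spike-in scaling. Between the hairpin libraries (0.86, 5 genes) it was 3.41 with no filter (10 genes), 0.58 with either normexp and 4.83 with the second probe (3 genes). That 4.83 is the value of Ctsw, which has 1 probe. For the si-RL-labelled library against Treg (-1.01, 5 genes) it was -0.70 with normexp from 1 background value. It was -3.13 with the second probe (3 genes) and -1.41 with spike-in scaling.

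Counts changed as well. Local normexp left 2 genes higher in the si-Eos-labelled library than in Treg (4 before) and 3 lower (1 before), and 0 higher in the si-RL-labelled library than in Treg (1 before). Spike-in scaling gave 2 lower in the si-Eos-labelled library than in Treg. With no filter, 10 genes entered each count, where the main setting had 5. Between the hairpin libraries 6 of them were higher (2 before), and 6 were lower in the si-RL-labelled library than in Treg (3 before). Over all genes, the share of higher ones among those 2-fold apart moved from 73.0% to 55.2% with median scaling, 86.0% with spike-in scaling and 83.7% with local normexp for Treg against naive T cells. For the si-RL-labelled library against Treg it moved from 49.0% to 16.8% with spike-in scaling and 17.7% with local normexp, and for the si-Eos-labelled library from 46.8% to 20.4% and 19.7%. Spike-in scaling shifted the median of all genes to -0.41 and -0.34 against Treg. No paired analysis was possible because each group had 1 array.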

Other observations

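The genes whose levels over the 4 arrays ran most like those of Nkg7, among 16444 genes well above background on all arrays, were Alcam, Tnfrsf8, Cysltr2, Ttc39c and Irf8. The likeness is the distance between log2 levels centred on each gene's mean over the 4 arrays, and it was 0.39 for Alcam and 0.92 for Irf8. Alcam (CD166, an adhesion molecule) read 0.0453 in naive T cells, 0.341 in fresh Treg, 2.91 in the si-Eos-labelled library and 0.0791 in the si-RL-labelled library. Tnfrsf8 (CD30) read 0.0762, 0.355, 3.73 and 0.127, and Irf8, a transcription factor, 0.976, 4.39, 28.4 and 1.13. These 3 were picked for this likeness, so their sharing the low, middle, high and low order of Nkg7 is no separate result. For Fcer1g the nearest were Plcd1 (0.05), A130099P19Rik, AI323028, Gpr63 and Ralgps1 (0.14).

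Of other receptors, Lag3, Pdcd1 and Havcr2 read highest in the si-Eos-labelled library, whereas Cd7, Cd226 and Cd96 read below Treg there. Lag3 read 0.791 in Treg, 6.26 in the si-Eos-labelled library and 0.0170, not well above background, in the si-RL-labelled library. Pdcd1 (PD-1) read 5.05, 15.8 and 0.458, the same order as Nkg7. Havcr2 (TIM-3) was 4.71 ± 0.22 above Treg in the si-Eos-labelled library. Cd7 and Cd226, an activating receptor, were lower there than in Treg by differences of -3.92 ± 0.21 and -3.57 ± 0.21. Cd96, which shares a ligand with Cd226, was below Treg in both hairpin libraries, at -1.88 ± 0.20 and -2.61 ± 0.20 for the si-Eos- and si-RL-labelled libraries.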
